A study of Mus musculus with 25 samples.

Results

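The 562 joins described here are all the deposited junctions, of 11867 in 10 tables, whose joined end lay from position 3259 to 3276 of the reporter cassette, in either orientation. They were chosen by position alone. That window is the place of the I-SceI site at the edge of an array of Ter elements. With I-SceI the window held 541 joins, with Tus it held 21 over 8 groups, and with the control that the labels call EV it held 0.

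I-SceI is a homing endonuclease from yeast mitochondria with a long recognition site, and it is widely used to place a single double-strand break in a mammalian chromosome. It cuts both strands a few bases apart and leaves complementary 3' overhangs of 4 bases. Broken ends in mammalian cells are joined mainly by non-homologous end joining, which can join ends directly, fill in or trim an overhang, or add bases. Alternative routes pair short stretches shared by both ends, called microhomology, and these routes usually trim the ends first.

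The samples came from mouse embryonic stem cells collected 48 h after transfection. A Cas9 cut 30 kb from the 4-kb single-GFP Ter cassette at ROSA26 was the bait, and each sequenced junction joins that bait end to DNA of the cassette. The I-SceI group, the EV group and 1 Tus group carried genotype BRCA1del/exon11 and received an siRNA against FANCM, a DNA translocase of stalled forks. Tus, a bacterial protein that binds Ter and stalls replication forks, was also tested in these cells with siRNA against BLM, BRCA1 or luciferase, and with all 4 siRNAs in BRCA1flox/exon11 cells. The nuclease and Tus were delivered by transient transfection with the siRNA, on MEF feeders, and the labels do not say whether a genotype was 1 clone. I-SceI was tested in no other genotype or siRNA here.

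The letters of the site were read from the joins themselves. Each position in the window was covered by at least 182 reads, and at least 97.3% of them held the same base. The site is shown with its 4 overhang bases in capitals, followed by the ends that a cut leaves, since all end positions below are counted from these ends.
I-SceI site: tagggATAAcagggtaat
Full left end: tagggATAA
Full right end: ATAAcagggtaat

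In the deposited coordinates these 18 letters lay from 3260 to 3277, 1 base to the right of the window. The window therefore holds the last base before the site and the first 17 bases of the site. The overhang bases lay from 3265 to 3268. A leftward join continues from its end toward position 1, so it holds the left side of the cut. Its full end is 3268, and its end without the overhang is 3264. A rightward join holds the right side, with its full end at 3265 and its end without the overhang at 3269. Bases that bait and cassette share at a join were counted in the cassette part, as in the deposited positions. The end found by exact match in the read was at the deposited position in 529 of 560 joins (94.5%).

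The bait end that was used most often over all groups was taken as its full end. Its last 30 bases were as follows, so that bait and site can be compared.
Full bait end: cagttcgaaactaggcaggagtaacttgct

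The 2 I-SceI libraries, named here by their sequencing runs A and C, listed 801 and 901 junctions, and all 25 libraries listed 148 to 933. The tables hold few repeats of the same join. The 539 I-SceI site joins with a called structure were 420 distinct combinations of bait end, inserted bases and cassette end. Only 11 of these combinations were listed more than once within a library, and no listing repeated the far end of the read as well. In contrast, 103 combinations occurred in both libraries, which is 39.6% of those in run A and 39.2% of those in run C. Within a library, counts at a position thus mostly count different combinations rather than repeats of one (260 combinations in run A and 263 in run C). Whether duplicates were removed before deposit is not given in the sources used here.

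With I-SceI, joins in the site window made up most of the joins in the array window when both orientations were pooled. The array window ran from 3024, the first base of its repeats of 116 bp, to 3276. It ends where the site window ends, so rightward joins with more loss were left out of it. Of 455 leftward array joins 41.3% were site joins, and of 360 rightward ones 98.1%. Site joins were 268 of 387 array joins (69.3%) in run A and 273 of 428 (63.8%) in run C, or 66.5% ± 3.86 (SD, n = 2 libraries). With Tus in the same genotype and with the same siRNA the counts were 2 of 344 joins in run A, 0 of 273 in run C and 0 of 71 in run D. The groups did not overlap. The pooled shares were 66.4% (95% Wilson interval 63.1 to 69.5) with I-SceI and 0.291% (0.0798 to 1.05) with Tus. The difference was 66.1 percentage points (interval 62.7 to 69.3, Fisher's exact test, adjusted p = 2.99e-195). The window was placed at the I-SceI site by the same positions that are counted here. The difference therefore gives the size of the share only, and its tests are no separate support. Over libraries the exact two-sided permutation test gave p = 0.1, the smallest that 2 against 3 libraries allow. Among all cassette junctions site joins were 31.9% ± 2.23 (SD, n = 2 libraries) with I-SceI. With EV the window held 0 of 468 junctions, which allows a share of up to 0.641%, and the array window as a whole held 1 junction with EV.

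Both sides of the I-SceI cut were joined to the bait. Rightward joins numbered 163 of 268 in run A and 190 of 273 in run C, or 65.2% ± 6.21 (SD, n = 2 libraries). This excess is of listed joins within the window, which covers losses beyond the overhang of up to 7 bases on the right and 5 on the left.

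The end positions broke off sharply at the full ends of the cut. Among leftward joins, 15 ended at the full end in run A and 8 in run C. The next base past the cut had 5 and 3, the one after it 2 and 2, and the remaining 6 positions of the window had 1 join in all. Among rightward joins, 25 ended at the full end in run A and 35 in run C. The next base past the cut had 7 and 2, the one after it 1 and 2, and the 4 positions beyond held 2 joins in all. On the side of loss joins went on to the edge of the window, with 7 and 5 leftward joins at 3259 and 7 and 6 rightward ones at 3276. Single bases differed there too. Leftward joins in run A fell from 16 at 3262 to 8 at 3261, and in run C from 14 at 3265 to 6 at 3264.

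**Figure D1:**
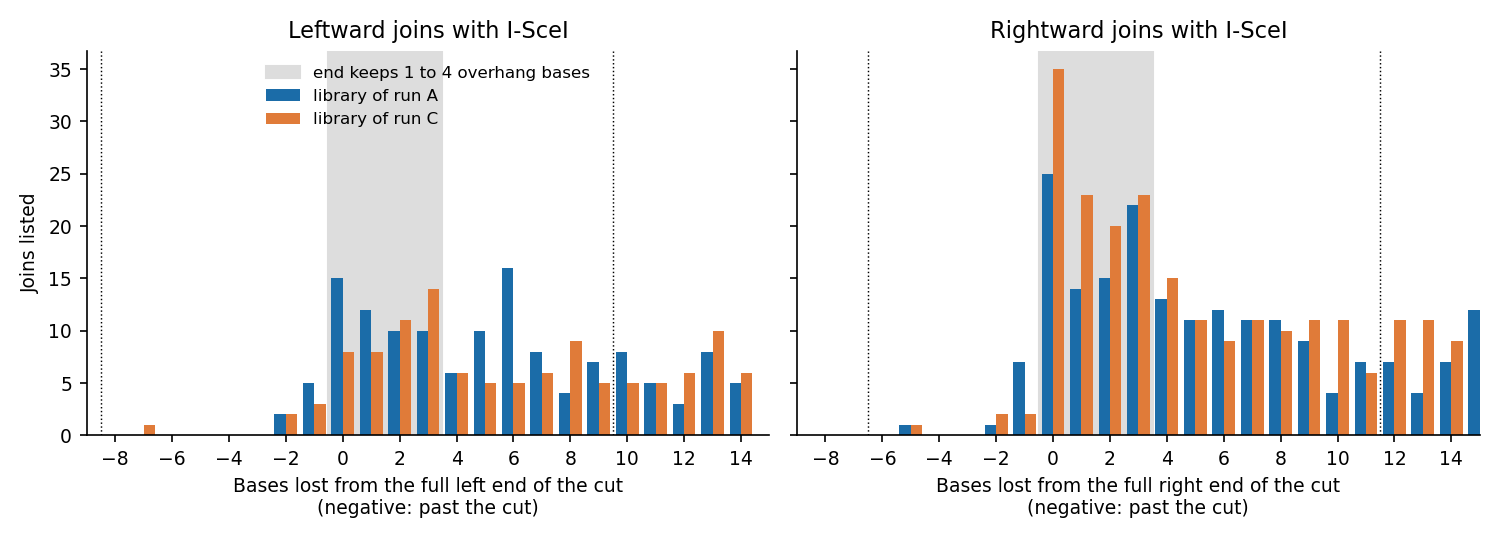
Joins with I-SceI listed at each base, by bases lost from the full end (horizontal axis), for leftward (left panel) and rightward (right panel) joins in each library. Grey marks ends with 1 to 4 overhang bases, dotted lines the window, and both panels drop at the full end, with 60 rightward joins there and 9 at the first base past it.

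By joins listed, ends spread over several bases on the left side, while the full end led on the right side. The most used leftward ends were 3265 with 24 joins, 3268 with 23, 3262 and 3266 with 21 each, and 3267 with 20. These 5 counts lie close together, and run A and run C ordered them differently, with 3262 highest in run A at 16 joins and 3265 highest in run C at 14. The leftward end without the overhang, 3264, had 12 joins, 6 in each library. Of the 24 joins at 3265, 10 shared 1 base and 5 shared 2 or more, so their last cassette base may be bait. Of the 12 at 3264, 3 shared 1 base and 0 shared more. The most used rightward end was the full end, 3265, with 60 joins (17.0% of rightward site joins, Wilson interval 13.4 to 21.3). It was first in both libraries, at 15.3% in run A and 18.4% in run C. Next came 3268 with 45 joins, 3266 with 37, 3267 with 35 and 3269, the end without the overhang, with 28. Run A had 22 joins at 3268, next to 25 at the full end, so only run C set the full end clearly apart. By the number of different bait ends joined there the order was different, with 25 at 3268, 20 at the full end and 18 each at 3266 and 3269.

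Overhang bases were kept on both sides of the cut. A join was counted as keeping the overhang where its cassette end lay within it, with 1 to 4 overhang bases left, shared bases included. Ends past the cut, 13 leftward and 14 rightward, were not counted as keeping it but stayed in the totals. This held for 88 of 188 leftward joins, 44.8% in run A and 49.4% in run C, or 47.1% ± 3.28 (SD, n = 2 libraries). For rightward joins it was 177 of 353, 46.6% in run A and 53.2% in run C, or 49.9% ± 4.62 (SD, n = 2 libraries). The pooled difference was 3.33 percentage points (interval -5.48 to 12.04, Fisher's exact test, adjusted p = 0.519), so a difference of either sign was not resolved at this depth. The windows reach unequally far on the 2 sides. With losses limited to the same number of bases the difference was 7.65 points (adjusted p = 0.189, Fisher's exact test), and in the window placed on the site by sequence it was -2.29.

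Most of the remaining ends had lost the overhang or more, and the others lay past the cut. The overhang was gone exactly in 12 leftward joins (6.38%) and 28 rightward joins (7.93%). Loss into the double-stranded part followed in 75 leftward joins (39.9%) and 134 rightward joins (38.0%). Partly shortened overhangs, with 1 to 3 bases left, made up 65 leftward joins (34.6%) and 117 rightward joins (33.1%). The libraries gave 30.5% and 39.8% for this class leftward, and 31.3% and 34.7% rightward. The loss went on outside the window. The 5 positions left of it had 61 leftward joins, against 75 at the 5 lowest positions inside, and the 5 positions right of it had 95 rightward joins, against 91 at the 5 highest positions inside.

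Past the full end lay 27 of the 541 joins, 13 leftward and 14 rightward, and 17 of them passed it by 1 base. A cut end has no such bases of its own. In 19 of the 27 the bait shares bases with the cassette at the join, and 6 had inserted bases, so that the last cassette base cannot be told from bait or inserted bases that match it. In 5 joins without an insertion the end lay further past the cut than the shared bases reach.

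**Figure D2:**
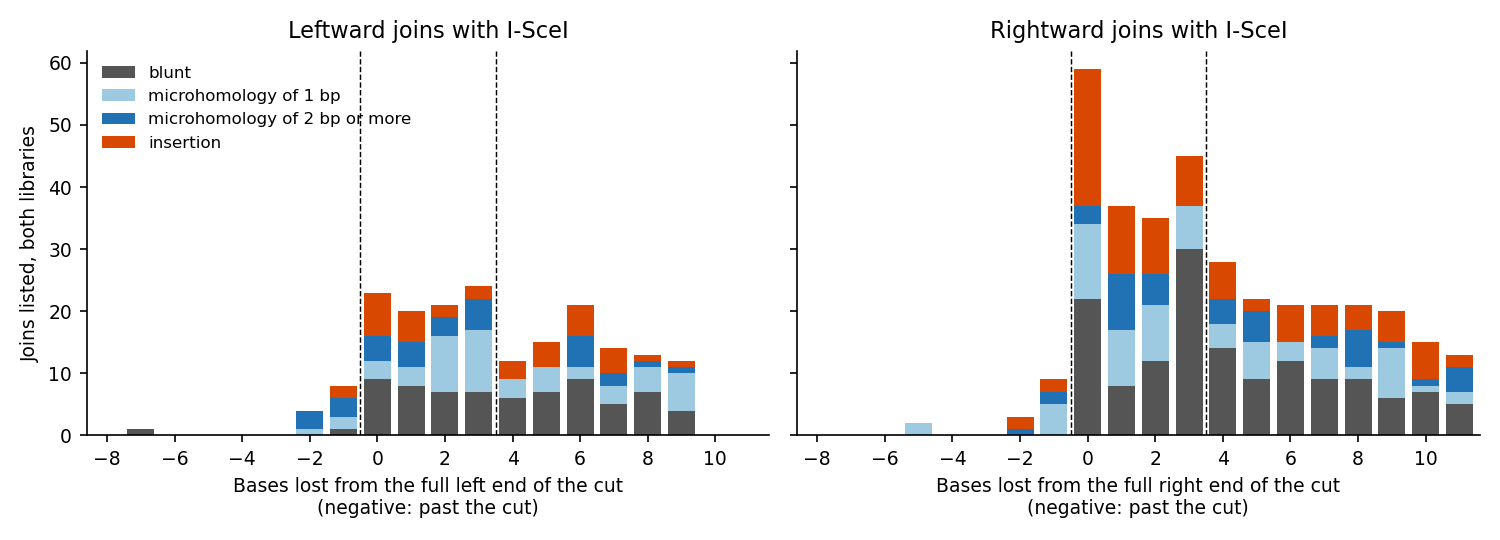
Structure of the I-SceI site joins (both libraries) at each base, by bases lost from the full end. Dashed lines bound the ends that keep overhang bases. At the rightward full end 22 of 59 called joins were blunt and 22 had an insertion, while past the cut nearly all joins had shared or inserted bases.

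Most site joins with I-SceI used little or no microhomology. Of 539 called joins, 214 (39.7%) were blunt, with neither shared nor inserted bases. Another 125 (23.2%) shared 1 base, 74 (13.7%) shared 2 or more, and 126 (23.4%) had inserted bases. The longest microhomology was 4 bp, in 14 joins. Blunt joins were 45.3% in run A and 34.2% in run C, and joins with an insertion 18.4% and 28.3%. Microhomology of at least 2 bp was at 14.6% and 12.9%.

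The structure did not differ detectably between the sides of the cut. Rightward joins were blunt in 143 of 351 cases (40.7%) and leftward joins in 71 of 188 (37.8%). The difference was 2.97 percentage points (interval -5.72 to 11.4, Fisher's exact test, adjusted p = 0.519). Microhomology of at least 2 bp was in 43 rightward joins (12.3%) and 31 leftward joins (16.5%), a difference of -4.24 points (interval -10.9 to 1.77, Fisher's exact test, adjusted p = 0.285). Insertions were in 90 rightward joins (25.6%) and 36 leftward joins (19.1%), a difference of 6.49 points (interval -1.06 to 13.4, Fisher's exact test, adjusted p = 0.226). In run A that last difference was 0.423 points and in run C 11.3 points.

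At the rightward full end 22 of 59 called joins had inserted bases and 3 shared 2 or more. At 3268, where 1 overhang base is left on the right side, 30 of 45 joins were blunt and 0 shared 2 or more bases. In the 30 bait bases shown, each AC follows an A, as the AC that starts at 3268 does. Such shared bases were therefore counted at an end further left, so this 0 follows from the letters and the counting. At 3266, 9 of 37 shared 2 or more. On the left side, 7 of 23 joins to the full end had inserted bases. Over both sides, 29 of 82 called joins to a full end (35.4%) had an insertion, against 97 of the other 457 (21.2%). These positions were singled out after their values were seen, and no test was made of them.

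Shared bases lay both in and outside the overhang. Of the 74 joins with 2 or more shared bases, 41 shared at least 1 overhang base and 21 shared overhang bases only. Of all 541 site joins, 265 (49.0%) ended within the overhang, with shared bases counted in the cassette part. Such microhomology was in 9.66% of rightward joins that kept overhang bases and 14.3% of those that kept none, and in 18.2% and 10.3% of leftward ones. The repeated joins with microhomology show how the bait tail meets the site. The complete joins listed most often are printed below, ties taken by smallest bait loss, with cassette bases in capitals, shared bases included, and the bait and inserted bases in lower case.
Rightward, end at 3273: aactaggcaggaGTAAT
Rightward, end at 3266: actaggcaggagTAACAGGGTAAT
Rightward, end at 3272: aggcaggagtaacttGGTAAT
Leftward, end at 3267: gcaggagtaacttgcTATCCCTA
Leftward, end at 3268: gcaggagtaacttgcttTTATCCCTA

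The join to 3273 was listed 3 times in run A and 2 times in run C. It lost 6 bases of the bait end and shared 4 bases, GTAA, with the site, beyond the overhang. The join to 3266 was listed 1 time in run A and 3 times in run C. It lost 5 bases of the bait and shared TAAC, of which the first 3 bases are overhang bases. The join to 3272 was listed 2 times in each library, lost 2 bases of the bait and shared 1 base. A join to 3265 with 17 bases of the bait lost was tied with the last 2 at 4 listings and is not printed. No leftward join was listed more than 2 times, and 20 were tied at that number. Of these, the joins with the smallest bait loss are shown, both with the full bait end. The first shares 1 base, and the second carries 1 inserted base between the full bait end and the full left end. The third by this rule ended at 3259, outside the site, and is not printed.

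**Figure D3:**
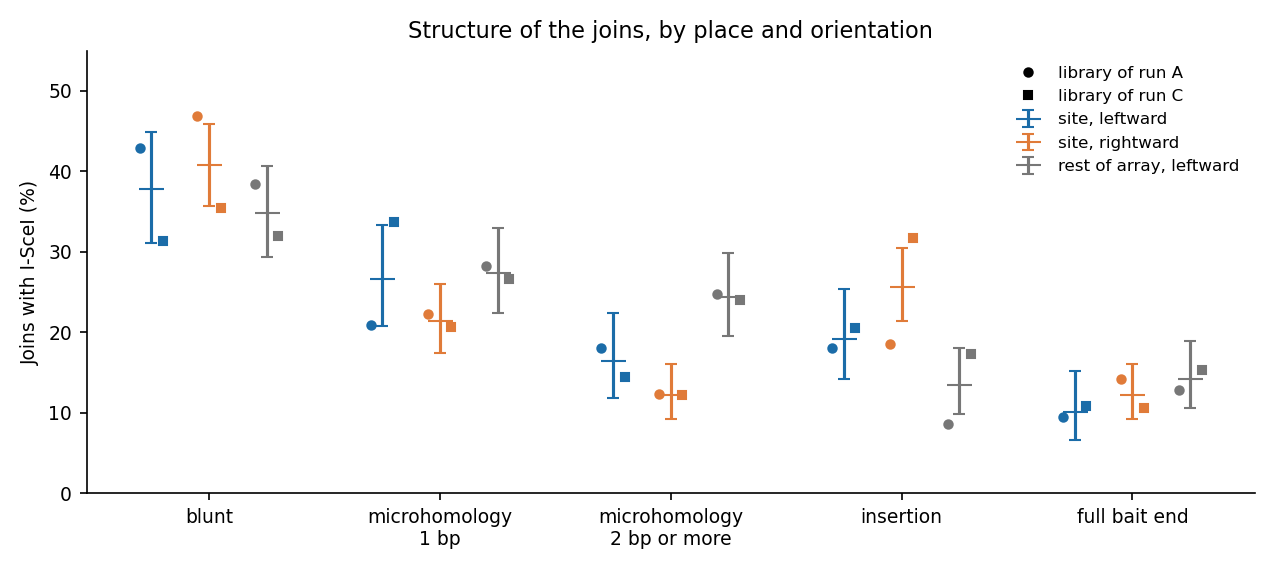
Share of I-SceI joins with each structure (vertical axis, percent) for leftward and rightward site joins and leftward joins elsewhere in the array. Dashes and bars are pooled shares with 95% Wilson intervals, circles run A and squares run C, and microhomology of at least 2 bp is at 12.3% and 16.5% in the site and 24.3% elsewhere.

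Joins in the rest of the array with I-SceI had more microhomology and fewer insertions than site joins. Microhomology of at least 2 bp was in 74 of 539 site joins (13.7%) and 68 of 274 other array joins (24.8%), a difference of -11.1 percentage points (interval -17.1 to -5.39, Fisher's exact test, adjusted p = 5.74e-04). It was lower in the site in both libraries, at 14.6% against 26.1% in run A and 12.9% against 23.9% in run C. Insertions were in 126 site joins (23.4%) and 39 other array joins (14.2%), a difference of 9.14 points (interval 3.41 to 14.4, Fisher's exact test, adjusted p = 0.00681). They were more frequent in the site in both libraries, at 18.4% against 8.40% in run A and 28.3% against 18.7% in run C. Blunt joins were 39.7% in the site and 33.9% elsewhere, a difference of 5.76 points that did not pass the test (interval -1.30 to 12.6, Fisher's exact test, adjusted p = 0.226).

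Orientation moved with that comparison. Of the 274 other array joins, 267 were leftward, whereas most site joins were rightward. Among leftward joins only, microhomology was in 16.5% of site joins and 24.3% of other array joins, a difference of -7.86 points (Fisher's exact test, adjusted p = 0.214, unadjusted p = 0.0475). Insertions then differed by 5.67 points (Fisher's exact test, adjusted p = 0.265), so neither call was kept. The insertion call was also lost without the library of run A (9.60 points, Fisher's exact test, adjusted p = 0.0825) and in a window 5 bp wider on each side (6.56 points, adjusted p = 0.0781). The microhomology call was lost at a minimum of 4 bp (-1.78 points, Fisher's exact test, adjusted p = 0.309).

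The bait end was rarely whole. The full bait end was in 62 of 539 site joins (11.5%) and 39 of 274 other array joins (14.2%), a difference of -2.73 percentage points (interval -7.96 to 1.97, Fisher's exact test, adjusted p = 0.338). In the site it was at 12.4% in run A and 10.7% in run C. Joins of the full bait end to a full end of the cut numbered 13, of which 9 were rightward and 4 leftward. Of these, 10 had inserted bases and 3 were blunt.

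Median bait loss was larger for leftward than for rightward site joins in both libraries. The median loss was 12 bases leftward and 6.5 rightward in run A, and 14 and 7 in run C. Losses of at most 5 bases made up 27.6% and 27.7% of leftward site joins in runs A and C, and 43.2% and 40.7% of rightward ones. Losses over 40 bases were in 24 of 188 leftward site joins (12.8%, Wilson interval 8.73 to 18.3), 10 of 351 rightward ones (2.85%, 1.55 to 5.16) and 13 of 267 leftward joins elsewhere in the array (4.87%, 2.87 to 8.15). Leftward joins that kept overhang bases had a median bait loss of 18 and 16 bases in runs A and C, against 10 and 12 for leftward joins that kept none. For rightward joins the medians were 6 and 7 with overhang bases kept and 6 and 6.5 with none kept. These values were singled out after they were seen and carry no test.

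**Figure D4:**
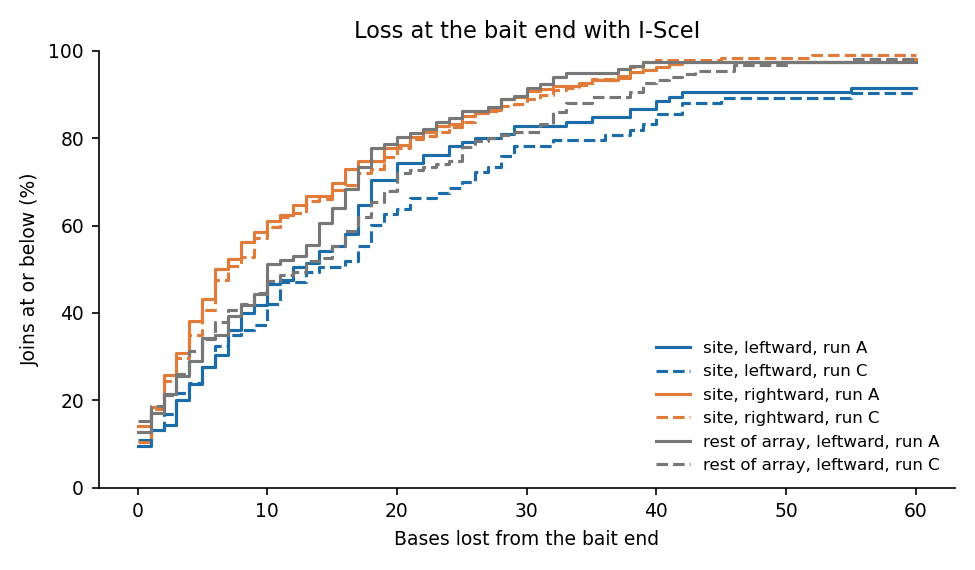
Cumulative share of I-SceI joins (vertical axis, percent) by bases lost from the bait end, for site joins of each orientation and leftward joins elsewhere in the array, with run A solid and run C dashed. Rightward site joins rise first in both libraries, reaching 43.2% and 40.7% at 5 lost bases, against 27.6% and 27.7% for leftward site joins.

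With Tus the window held 21 of 4973 array joins (0.422%, Wilson interval 0.276 to 0.645), in 10 of 21 libraries. The group with siRNA against BRCA1 in BRCA1del cells had 11 of them. Its libraries held 6 of 274 array joins (2.19%) in run B, 4 of 269 (1.49%) in run C and 1 of 103 (0.971%) in run D, or 1.55% ± 0.612 (SD, n = 3 libraries). Each of the other 7 Tus groups had 1 to 3 site joins and a pooled share from 0.132% to 0.413%. These libraries overlap with the siBRCA1 group, since the siBLM library of run C in BRCA1del cells held 3 of 288 (1.04%). The difference between Tus groups was not tested. In BRCA1del cells 17 of 2820 Tus array joins lay in the window, and in BRCA1flox cells 4 of 2153.

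In the siBRCA1 group of BRCA1del cells, rightward joins started at 3259, 3260 (2 listings of 1 combination), 3263 (2) and 3273 in run B, at 3260 and 3265 in run C and at 3260 in run D. Its leftward joins ended at 3259 and 3274, both in run C. With siRNA against BLM in these cells there were leftward ends at 3268 and 3269 and a rightward one at 3262, all in run C. With siRNA against FANCM, rightward joins started at 3259 and 3268 in run A, and with siRNA against luciferase 1 started at 3275 in run B. The BRCA1flox groups had 1 rightward join each, all in run C. It started at 3266 with siRNA against BLM, at 3274 against BRCA1, at 3265 against FANCM and at 3262 against luciferase.

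Rightward Tus joins left of the overhang came mainly from 1 group. Of the 17 rightward Tus joins, 10 started left of the overhang (58.8%, Wilson interval 36.0 to 78.4), 4 within it and 3 to the right of it. The siBRCA1 group of BRCA1del cells gave 7 of its 9 rightward joins left of the overhang, and the other 7 Tus groups gave 3 of 8. With I-SceI, 14 of 353 rightward joins started left of the overhang (3.97%, 2.38 to 6.55). This feature was chosen after the values were seen and was not tested. Of the 21 Tus joins, 6 were blunt, 5 shared 1 base, 4 shared 2 or more and 6 had inserted bases of up to 35 bp. The full bait end was in 7.

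**Figure D5:**
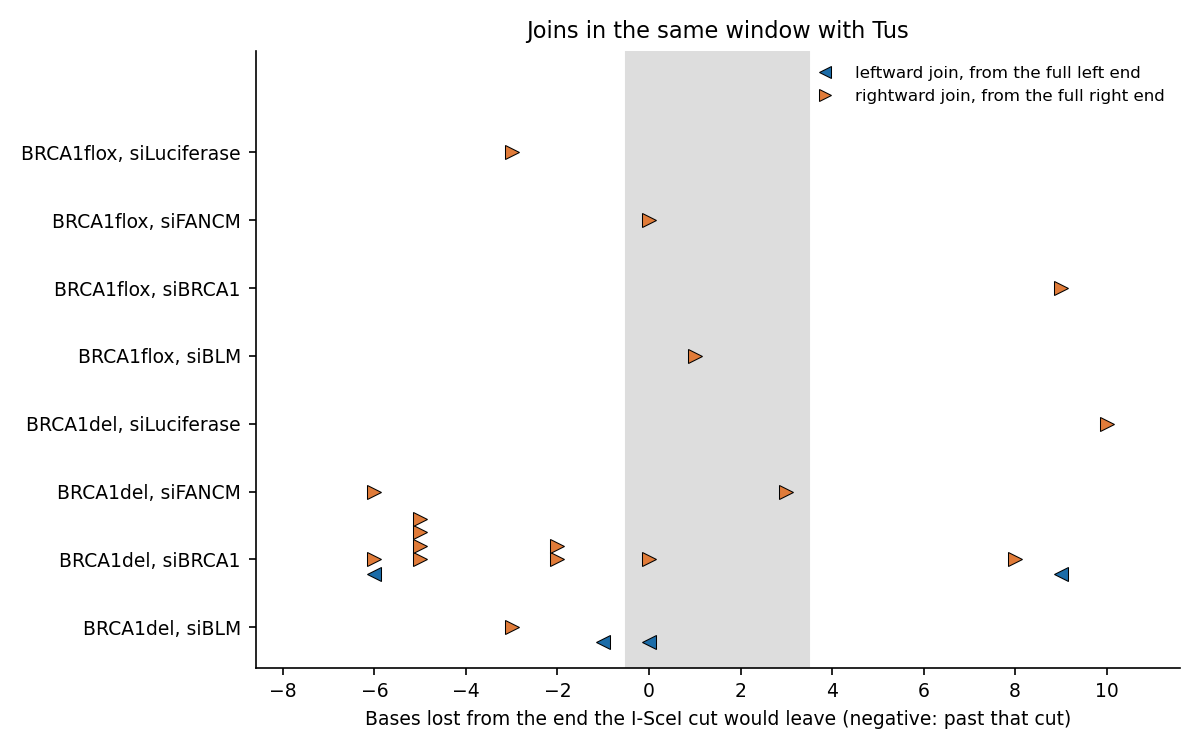
The 21 Tus joins in the window by group, at the number of bases lost from the end that an I-SceI cut would leave (horizontal axis). Grey marks ends that would keep overhang bases, and 10 of the 17 rightward joins lie to the left of it.

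Some Tus joins had the same ends as I-SceI joins. Of the 21, 7 had the orientation, cassette end and bait end of an I-SceI site join, and 6 of these were in runs A or C, which also held the I-SceI libraries. With the inserted bases matched too, 3 were left, all in runs A or C. Runs A and C held 13 Tus site joins among 2761 Tus array joins (0.471%), and runs B and D held 8 among 2212 (0.362%). Whether reads passed between libraries of a run was not tested.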

How the data were processed

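Junctions were mapped by LAM-HTGTS, in which DNA joined to a cut bait end is amplified and sequenced, on a MiSeq per the labels' protocols. Per the submitters' processing notes, Bowtie2 and the build mm9 were used. Each group has 1 table from the authors, whose rows give a junction's position, strand, alignment bounds and read. These other values are positions in a cassette reference named chromosome 1, not counts and not coordinates of a genome build. How duplicates were treated is not stated in those sources.

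The labels list 25 samples in 10 groups. A table holds all samples of its group together, so each sequencing run in its read names was taken as 1 library. Nothing says whether libraries were separate cultures, so their spread may be technical.

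Bait letters were read base by base as those most reads held, and cassette letters were rebuilt from the reads in 5 passes. The letters around the site came from a separate vote of the joins at or near it. The overhang was placed from the known cut of the enzyme. Structure was called from an exact bait seed of 10 bp and cassette seed of 12 bp, with microhomology from 2 bp. Tested on simulated data, the caller was exact in 100% of 2000 drawn site joins without read errors and 96.3% of 2000 with 0.3% errors per base. These joins were drawn from the same rebuilt letters and had short insertions only. Joins in the rest of the array and long insertions were not simulated, so the accuracy of their calls is not known. Shares were compared by two-sided Fisher's exact tests on pooled junctions, adjusted by Benjamini-Hochberg over 9 tests (threshold 0.05), with Newcombe intervals for differences (SciPy 1.17.1). The 9 include the site share against Tus, which is no separate support and makes the adjusted p-values of the others smaller. Amplified reads are not independent molecules, so intervals and tests cover counting error only. Named positions were the 5 most used ends per orientation, the full ends, the ends without the overhang, every Tus join and the 3 most listed joins per orientation. The members, lists and tests were chosen with earlier results of these data known.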

Additional observations from a re-analysis of the deposited data

How the results depend on the processing

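Over 64 alternative values of the 9 compared shares, 58 kept their side of the threshold and 62 kept their direction, the other 2 being values that passed no test. The site share of array joins stayed 63.5 to 76.2 percentage points above that with Tus throughout. With the window 5 bp wider the blunt share passed (9.92 points, adjusted p = 0.0295, Fisher's exact test) and the insertion share did not (6.56 points, adjusted p = 0.0781). Microhomology from 4 bp gave -1.78 points. Among leftward joins only, a setting added after seeing the data, the microhomology and insertion differences were -7.86 and 5.67 points. Leaving out each library gave 9.60 to 9.95 points for the insertion share, with the call lost without run A, and -11.4 to -11.0 for microhomology. Without run C of I-SceI both had adjusted p = 0.0411 (Fisher's exact test, unadjusted p = 0.0137 for insertion and 0.00973 for microhomology). These 2 calls lie near the threshold, and adjustment without the site share test was not made. Leftward joins only and the settings without a library held fewer joins, and the cause of these changes was not tested. The overhang difference ran from -2.29 to 8.44 points and never passed. Removing repeated joins, giving microhomology to the bait and libraries as strata changed no call where they were run. No paired analysis was possible because the tables carry no replicate number from the labels, and the sequencing run served as the stratum above. At this depth the intervals of all 4 differences between the sides of the cut hold 0, so smaller differences were not detectable.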

Other observations

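Inserted bases at I-SceI site joins were mostly short. The median insertion was 1.5 bases in 36 leftward joins and 2 bases in 90 rightward joins, and 58 of the 126 were single bases. Of the single bases 42 were A or T (72.4%) and 16 were C or G. Insertions over 10 bp were in 8 leftward and 8 rightward joins. The longest was 147 bp leftward and 22 bp rightward. The origin of these bases was not tested.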
